A study of Mus musculus with 26 samples.

Results

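The 21857 regions described here are those with identical coordinates in the K4-K27 and the K27-K4 region sets of E14 mouse embryonic stem cells, out of 24540 K4-K27 and 36235 K27-K4 regions. These sets are larger than the peak sets the study reports, which it filtered for enrichment and false discovery rate. They are therefore not its list of bivalent regions. At each shared region the reChIP in which H3K27me3 was pulled down first and H3K4me3 second (K27-K4) was compared with the reverse order (K4-K27). E14 is an established, non-clonal embryonic stem cell line of wild-type (WT) genotype, grown in serum and LIF on gelatin with no other treatment. Each replicate started from a pellet of 2000000 formaldehyde-fixed cells digested with MNase to mainly mononucleosomes, and 10% of the chromatin was set aside after the first ChIP as the in-line total H3K4me3 or total H3K27me3. There were 2 libraries per order, and replicates 1 and 2 were sequenced in separate batches, so replicate and batch cannot be told apart. A single IgG–IgG reChIP accompanied replicate 1. The same regions were also read in reChIPs of WT clones 57 and 58 and DKO clones 43 and 53 (genotype DPPA2/4 DKO, a double knockout), all of strain E14 and each 1 clonal line, sequenced in a further batch.

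Bivalent chromatin carries the active mark H3K4me3 and the Polycomb mark H3K27me3 on the same nucleosome, and in embryonic stem cells it is best known at CpG-rich promoters of silent developmental genes. H3K4me3 is laid down by SET1 and MLL complexes around active or CpG-rich start sites, and H3K27me3 by Polycomb repressive complex 2. A reChIP pulls down chromatin with an antibody against either mark, elutes it, and pulls it down again with an antibody against the other. A nucleosome with both marks should be recovered in either order, and the question of the comparison is at which regions and genes the order changed the signal.

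Of the 21857 regions, 0 (0%) passed the test in either direction. The regions that leaned the furthest toward K27-K4 in both replicates were promoters with H3K4me3 alone in the totals, such as those of Rps10, Pgk1, Eef2, Rpl13 and Eno1. Those leaning the furthest toward K4-K27 were mostly narrow, CpG-poor, H3K27me3-marked regions away from promoters. Both statements need the sign of replicate 1 as labelled, and replicate 1 stood apart from the other pairs as described below. The leading pair of promoter regions in each direction is shown here to let their CpG content be seen. The sequences are from RefSeq on GRCm38 (mm10), written 5′ to 3′ with each CG dinucleotide in capitals. For Rps10 and Pgk1 they run from 250 bases before to 50 bases after the start site. For Tfap2d and Mfsd4b1, whose start sites lie 1272 and 1033 bp outside the measured region, they are 300 bases at the centre of that region.
Rps10 (chr17:27635195-27635494, minus strand): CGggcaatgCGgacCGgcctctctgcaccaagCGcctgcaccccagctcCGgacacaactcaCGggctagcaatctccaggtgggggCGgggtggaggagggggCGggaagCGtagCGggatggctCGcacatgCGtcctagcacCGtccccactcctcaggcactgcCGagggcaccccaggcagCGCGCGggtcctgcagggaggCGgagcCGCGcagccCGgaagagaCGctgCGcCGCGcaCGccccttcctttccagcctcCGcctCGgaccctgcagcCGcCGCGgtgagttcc
Pgk1 (chrX:106186850-106187149, plus strand): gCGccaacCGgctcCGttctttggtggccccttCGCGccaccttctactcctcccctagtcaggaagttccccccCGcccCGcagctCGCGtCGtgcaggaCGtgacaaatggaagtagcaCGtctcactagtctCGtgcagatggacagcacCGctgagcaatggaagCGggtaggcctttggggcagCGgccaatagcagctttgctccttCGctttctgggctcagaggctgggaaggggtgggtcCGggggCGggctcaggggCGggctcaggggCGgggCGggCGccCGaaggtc
Tfap2d (chr1:19100400-19100699, plus strand): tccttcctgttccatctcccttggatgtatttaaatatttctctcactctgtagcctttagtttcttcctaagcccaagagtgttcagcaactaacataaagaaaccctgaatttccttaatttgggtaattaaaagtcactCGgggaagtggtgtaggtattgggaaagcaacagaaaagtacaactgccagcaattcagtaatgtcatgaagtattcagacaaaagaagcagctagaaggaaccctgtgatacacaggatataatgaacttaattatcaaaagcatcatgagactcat
Mfsd4b1 (chr10:40026975-40027274, plus strand): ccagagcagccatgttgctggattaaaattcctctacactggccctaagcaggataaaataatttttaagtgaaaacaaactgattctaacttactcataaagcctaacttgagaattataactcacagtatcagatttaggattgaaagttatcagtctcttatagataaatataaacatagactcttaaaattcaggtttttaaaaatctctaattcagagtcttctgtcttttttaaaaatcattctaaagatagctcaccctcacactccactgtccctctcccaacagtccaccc

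The Rps10 window held 31 CG dinucleotides, a count reached by 10.6% of the 32851 RefSeq promoter windows of the same length. The Pgk1 window held 24, a count reached by 19.98% of them. The Tfap2d window held 1 and the Mfsd4b1 window 0, where the centres of all shared regions had a median of 8 in 300 bases and 98.5% of them held at least 1. The windows differ in kind, since the first pair lies at start sites and the other at region centres. Over the whole measured region, CpG content was 2.32 per 100 bp at Rps10, 0.33 at Tfap2d and 0.85 at Mfsd4b1, and that of Pgk1 lay between those of Mfsd4b1 and Rps10. The median over all shared regions was 2.37, so all 4 lay below it.

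The libraries differed in ways that bear on every result. Libraries held 6741244 to 47903464 reads, and the median shared region held 35 (K4-K27) and 41 reads (K27-K4) in replicate 1 and 259 and 598 in replicate 2. The values are log2 RPM (reads scaled to library size) per kb of region. As deposited they were higher in K27-K4 at 80.5% of regions in replicate 1 and at 94.6% in replicate 2, and the medians of the libraries differed by 0.63 and 0.73. Each library was therefore centred on its own median, and a difference below is K27-K4 minus K4-K27 on this centred log2 scale, so that it is relative to the typical shared region. Of the 8 embryonic stem cell markers, 6 had a shared promoter region (not Nanog or Utf1), with total H3K4me3 above IgG–IgG by 0.52 to 2.00. Their total H3K27me3 against IgG–IgG had a median log2 difference of -1.26 and a range from -2.01 to 0.96. Of the 8 fibroblast markers, 7 had one, with a median of 0.66 (-0.06 to 2.15) for H3K4me3 and 0.58 (-0.55 to 1.45) for H3K27me3. The only E14 IgG–IgG library was that of replicate 1.

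The replicates did not show the same order difference. Across the 21857 regions the differences of replicates 1 and 2 correlated at -0.10 (Pearson's r, a description across regions that share libraries). Both were positive at 4845 regions (22.2%) and both negative at 4396 (20.1%), and at 57.7% they had opposite signs. The differences had an SD over regions of 0.80 in replicate 1 and 0.41 in replicate 2, where counting error alone came to a median of 0.34 and 0.11 per region. Leaving out shallow regions did not bring the replicates closer, with r = -0.17 over the 12202 regions of 200 or more reads on average. It was positive only within the H3K27me3-only class among the 4 in-line classes (r = 0.24), and was -0.26 within H3K4me3-only regions. At promoters, where the gene lists are read, r was -0.35, against -0.03 away from them.

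Replicate 1 also stood apart from the clones. Its difference correlated at 0.71 across regions with the balance of the totals (in-line total H3K4me3 minus total H3K27me3), while the correlation was -0.05 in replicate 2 and between -0.84 and -0.76 in the 4 clones. In replicate 1 the K4-K27 library correlated with its own total H3K27me3 at 0.70 and with its own total H3K4me3 at -0.21. In the clones the K4-K27 libraries correlated with their own total H3K4me3 at 0.72 to 0.86, and it was the K27-K4 libraries that followed total H3K27me3, at 0.60 to 0.69. The K27-K4 library of replicate 1 correlated at 0.23 with total H3K4me3 and at 0.34 with total H3K27me3. In replicate 2 the K4-K27 library correlated with its own total H3K4me3 and total H3K27me3 at 0.38 and 0.15. Its K27-K4 library did so at 0.31 and 0.19. An exchange of the replicate 1 libraries would turn the sign of each replicate 1 difference given here, and whether one took place was not tested. The labels were kept as given. Values with that pair exchanged, a reading added after the data were seen, are set beside several results that need both replicates. They are not given for the test of E14 against the WT clones or for the counts of single gene lists. In replicate 2 the libraries of the orders were alike, with a correlation of 0.93 between them against 0.68 in replicate 1 and 0.34 to 0.54 in the clones. Differences below are given for each E14 replicate, but counts and choices that need the same direction in both replicates rest on the replicate 1 labels. The part of library preparation or batch in this was not tested.

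**Figure D1:**
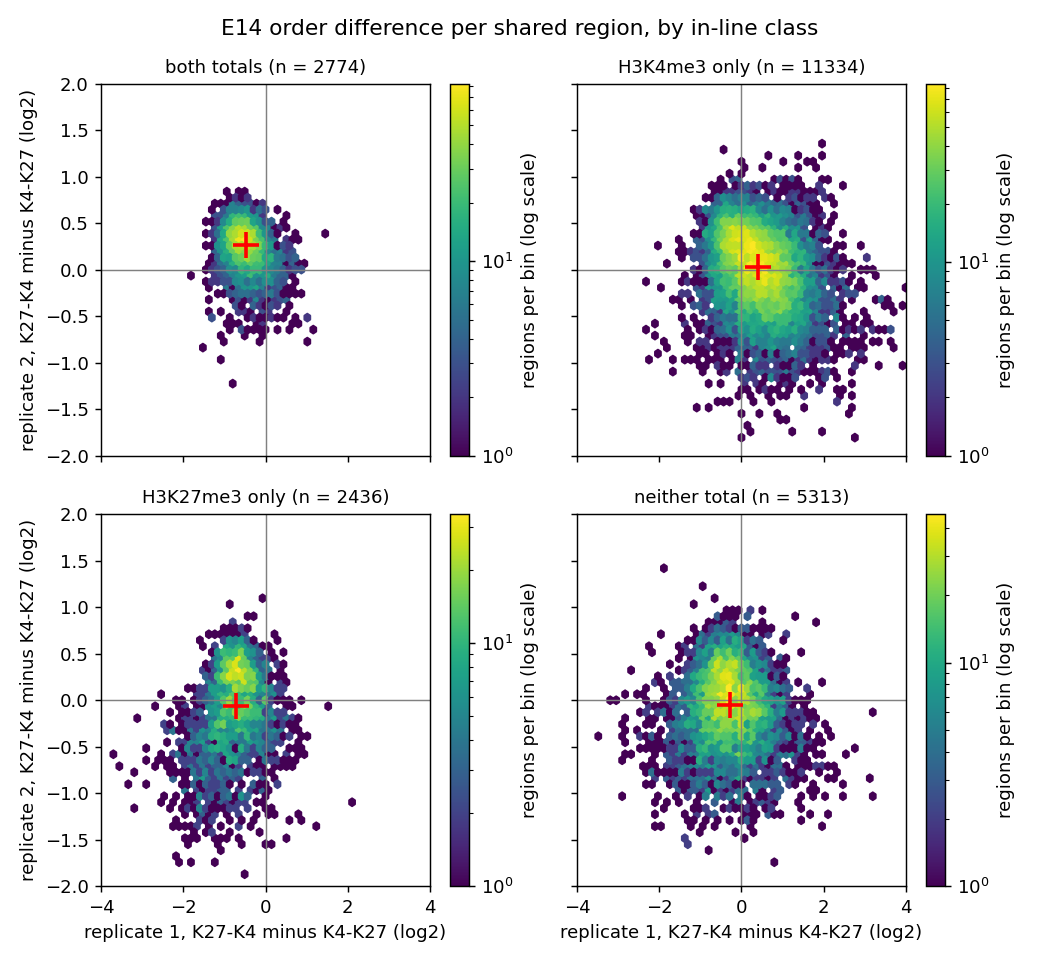
Order difference (K27-K4 minus K4-K27, log2, libraries centred) of replicate 1 on the horizontal axis against replicate 2 on the vertical axis, in a panel for each in-line class, with colour for the number of regions per bin and a red cross at the medians. The cross of the both-totals class lies at -0.48 in replicate 1 and 0.27 in replicate 2, that of H3K4me3-only regions at 0.41 and 0.03.

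Region by region, limma with the replicate as a block called 0 of 21857 regions higher in K27-K4 (0% of those tested) and 0 higher in K4-K27 (0%), at a Benjamini-Hochberg adjusted p under 0.05 and a log2 difference above 1. The smallest adjusted p was 1.00. With the replicate 1 pair exchanged, limma called 6 regions higher in K27-K4 and 12 higher in K4-K27, and 735 and 13 had an adjusted p under 0.05 at any size of difference. At an unadjusted p under 0.05 there were 324 regions higher in K27-K4 (1.48%) and 416 higher in K4-K27 (1.90%). The balance of these turned with the scaling, the regions and the libraries used. It was 382 and 320 after quantile normalisation, 439 and 321 with a common median absolute deviation, 315 and 190 with regions under 50 reads on average left out, 256 and 154 without the lowest quartile of mean values, and 456 and 167 in 1 fit with the clones. With values as deposited, 1523 regions were called higher in K27-K4 and none in K4-K27, around a median difference of 0.70. With 2 pairs an exact permutation test of a single region cannot give a two-sided p below 0.5. The values that follow are therefore descriptions of candidates, none of which was called.

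The 4 libraries of the orders did not overlap at 3022 regions higher in K27-K4 (13.8%) and at 1721 higher in K4-K27 (7.87%). After an exchange of the replicate 1 pair these counts were 5367 (24.6%) and 3159 (14.5%). H3K4me3-only regions make up 51.9% of all shared regions. As labelled, 82.8% of the regions higher in K27-K4 and 25.9% of those higher in K4-K27 were H3K4me3-only, and with the pair exchanged it was 28.4% and 77.7%. As labelled, 15.9% of those higher in K4-K27 were H3K27me3-only, against 11.1% of all shared regions, and 49.3% had neither total, against 24.3%. The difference was above 1 in both replicates at only 7 regions higher in K27-K4, and at 111 higher in K4-K27. All 7 were H3K4me3-only promoters (Rps10, Pgk1, Eef2, Rpl13, Eno1, Rpl6 and Slc2a1), with a median width of 7800 bp. Of the 111, 108 lay away from promoters, 80 overlapped a total H3K27me3 region only and 28 neither total, and their median width was 1200 bp. Their depth was low, with a median of 37.25 reads per library and of 9 reads in the K27-K4 library of replicate 1. In replicate 2 alone the difference was above 1 at 21 regions, of which 16 (76.2%) lay at promoters and 15 (71.4%) were H3K4me3-only. It was below -1 at 438, of which 100 (22.8%) lay at promoters, against 59.4% of all shared regions. Of the 438, 168 (38.4%) were H3K4me3-only, against 51.9% of all shared regions, and 141 (32.2%) were H3K27me3-only, against 11.1%. With the replicate 1 labels exchanged, the regions above 1 in both replicates would number 2 for K27-K4 and 85 for K4-K27, and 72 of the 85 were H3K4me3-only.

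Among promoters, the 10 regions leaning most toward K27-K4 were chosen by the smaller of the replicate differences, with at least 50 reads on average, from 276 such regions at an unadjusted p under 0.05. All 10 overlapped a total H3K4me3 region and no total H3K27me3 region, and in all 10 the libraries of the orders did not overlap. Their values are given as descriptions because these values chose them. In replicate 1, the batch of the IgG–IgG library, the K4-K27 signal lay below IgG–IgG at all 10, by a log2 difference between -1.79 and -0.01, and the K27-K4 signal above it, by 0.74 to 2.57. Over all shared regions the K4-K27 library of replicate 1 lay below IgG–IgG at 20.1%.

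At Rps10, which encodes a protein of the small ribosomal subunit (chr17:27629701-27637500), centred values were -1.70 and -0.93 for K4-K27 against 0.26 and 0.43 for K27-K4 for replicates 1 and 2. The K4-K27 libraries lay below their median and the K27-K4 libraries above theirs, with 28 and 314 reads against 114 and 1866. The differences were 1.96 and 1.36 (mean 1.66, SE 0.49, unadjusted p = 0.000622 in limma). At Pgk1, a glycolytic kinase (chrX:106186951-106192950), the values were -1.88 and -1.68 for K4-K27 against 0.07 and -0.43 for K27-K4, so that K4-K27 was low in both replicates. The region over Eef2, the translation elongation factor, also holds the start sites of Dapk3 and Snord37 (chr10:81174151-81185100). It had -1.22 and -0.74 for K4-K27 against 0.18 and 0.46 for K27-K4. Rpl13, a protein of the large ribosomal subunit, had -1.29 and -0.57 for K4-K27 against 0.34 and 0.59 for K27-K4. Eno1, the glycolytic enolase, had -1.06 and -0.65 for K4-K27 against 0.62 and 0.51 for K27-K4.

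The other 5 were Rpl6, the glucose transporter gene Slc2a1, the region shared by Rps18, B3galt4 and Vps52, the kinase gene Stk11 and the kinase gene Pim3. At Rpl6 the values were -1.33 and -1.19 for K4-K27 against 0.00 and -0.10 for K27-K4. At Slc2a1 they were -1.92 and -1.34 for K4-K27 against -0.12 and -0.25 for K27-K4. Over all 10, the difference ran from 1.28 to 2.12 in replicate 1 and from 0.98 to 1.36 in replicate 2, and unadjusted p from 0.000622 to 0.0213. The regions were 4200 to 28500 bp wide, with 1.47 to 4.71 CpG per 100 bp.

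The clones gave the opposite order at these promoters, in libraries that took no part in choosing them. In both WT clones the difference was negative at all 10, with a mean between -1.55 and -0.71, and limma called 5 of 10 higher in K4-K27 and 0 higher in K27-K4. Over all shared regions 20.8% were called higher in K4-K27 and 31.8% higher in K27-K4 in the WT clones. Rps10 had a WT difference of -1.002 (SE 0.43, adjusted p = 0.0387) and Pim3 one of -1.38 (SE 0.35, adjusted p = 0.000380). In the DKO clones 6 of 10 were called higher in K4-K27, against 20.3% of all shared regions.

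**Figure D2:**
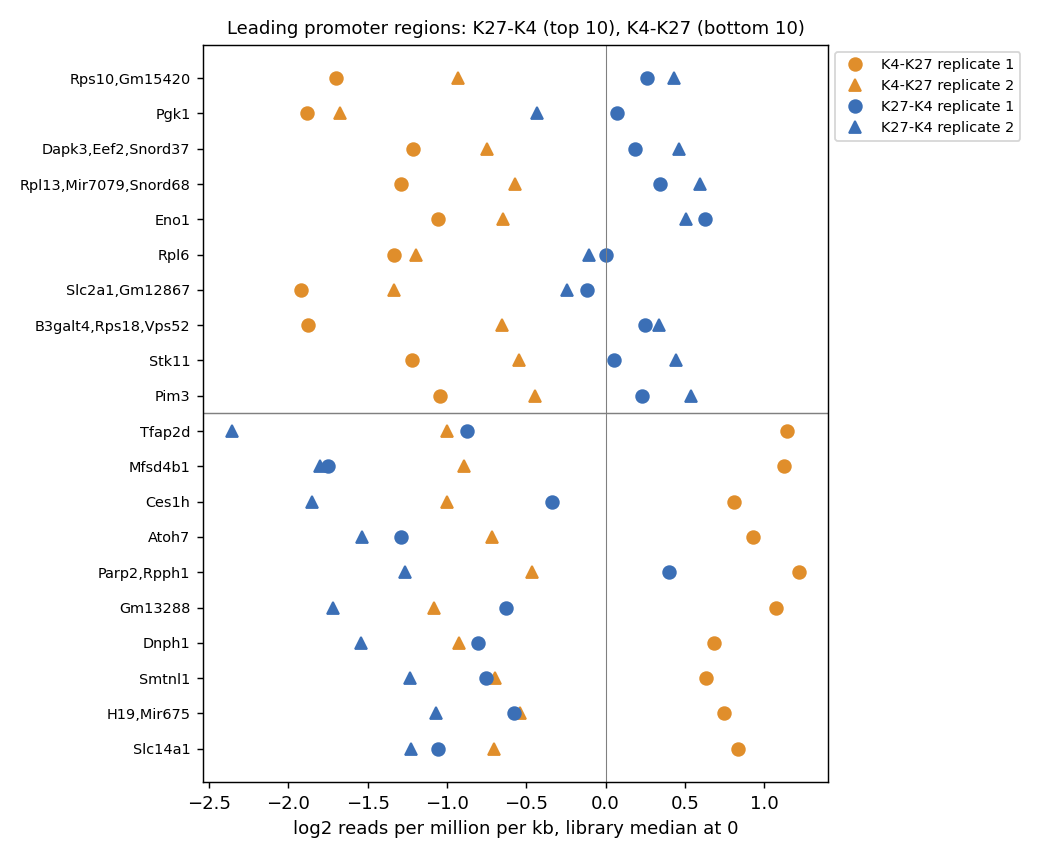
Centred log2 values of the 4 E14 reChIP libraries on the horizontal axis at the 10 promoter regions leaning most toward K27-K4 (top) and the 10 leaning most toward K4-K27 (bottom), with orange for K4-K27, blue for K27-K4, circles for replicate 1 and triangles for replicate 2. In each row of the top 10 the orange points lie left of the blue ones, while in the bottom 10 the K4-K27 point of replicate 1 lies far to the right of the others.

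Toward K4-K27 there were fewer promoters to choose from, 23 at an unadjusted p under 0.05 with at least 50 reads on average. In replicate 1 the leading 10 lay above IgG–IgG in both orders, by 1.32 to 3.78 in K4-K27 and by 0.17 to 2.44 in K27-K4. Of the leading 10, 6 overlapped a total H3K27me3 region only, and the libraries of the orders did not overlap at 5. Tfap2d encodes a transcription factor of the AP-2 family (region chr1:19099351-19101750). It had 1.15 and -1 for K4-K27 against -0.87 and -2.36 for K27-K4, so that the values of the orders overlapped across replicates although each replicate was lower in K27-K4. Its reads numbered 62 and 92 for K4-K27 against 16 and 83 for K27-K4, and the differences -2.02 and -1.36 (SE 0.56, unadjusted p = 0.00261). Mfsd4b1, a gene of the major facilitator transporters (chr10:40026301-40027950), had 1.13 and -0.90 for K4-K27 against -1.75 and -1.80 for K27-K4, and its K27-K4 values rested on 6 reads in replicate 1 and 84 in replicate 2. Atoh7, a proneural transcription factor of the retina, had 0.93 and -0.72 for K4-K27 against -1.29 and -1.54 for K27-K4.

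H19, the imprinted non-coding RNA that hosts Mir675 (chr7:142574701-142581900), had 0.75 and -0.54 for K4-K27 against -0.58 and -1.07 for K27-K4. Here the groups did not overlap, by a small margin. The other 6 were Ces1h, Gm13288, Dnph1, Smtnl1, Slc14a1 and the region of Parp2 and Rpph1, the last of which was the only H3K4me3-only region among the 10. Over the 10, differences ran from -2.87 to -0.82 in replicate 1 and from -1.36 to -0.52 in replicate 2. The CpG content was 0.33 to 3.50 per 100 bp. In the WT clones 7 of these 10 were called higher in K27-K4, again the opposite order, against 31.8% of all shared regions. The exception was the region of Parp2 and Rpph1, which was higher in K4-K27 in both WT clones (-1.58 and -1.36) and both DKO clones (-0.85 and -2.24), as in E14. H19 had a WT difference of 1.29 (SE 0.39, adjusted p = 0.00350 in limma) and Tfap2d one of 2.38 (SE 0.65, adjusted p = 0.00121).

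Away from promoters, the regions leading toward K27-K4 were near Map1s, Dgkh and Phldb2. The Map1s region (4577 bp from the nearest start site) had -0.43 and -0.49 for K4-K27 against 0.22 and 0.75 for K27-K4. The other two rested mainly on replicate 1, with differences of 1.70 and 0.30 near Dgkh and 1.93 and 0.16 near Phldb2. Toward K4-K27 the leading regions were near Cdk5rap2, Peg12 and Zic4, all H3K27me3-only and with 0.33 to 0.53 CpG per 100 bp. The region 9160 bp from the start site of Peg12, an imprinted gene, had 1.59 and -0.64 for K4-K27 against -0.41 and -2.13 for K27-K4. Its mean difference was -1.74 (SE 0.47, unadjusted p = 0.000202 and adjusted p = 1.00 in limma), the smallest unadjusted p among the named regions. In the WT clones this region was higher in K27-K4 by 1.66 (SE 0.42, adjusted p = 0.000420). Toward K27-K4, however, the regions near Map1s (WT differences of 1.40 and 0.33) and Phldb2 (0.30 and 1.16) had the same direction in the WT clones as in E14, neither called, and that near Phldb2 was called higher in K27-K4 in the DKO clones (3.80, SE 1.36, adjusted p = 0.00936). The region 18379 bp from Zic4, a zinc finger transcription factor of the cerebellum, had 0.98 and -0.64 for K4-K27 against -0.75 and -1.98 for K27-K4.

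Over all candidates at an unadjusted p under 0.05 with the same direction in both replicates, the kinds differed between directions. Of 281 leaning toward K27-K4, 275 (97.9%) were H3K4me3-only regions, a class that makes up 51.9% of the shared regions, and 276 (98.2%) lay at promoters, against 59.4%. Of 410 leaning toward K4-K27, 262 (63.9%) were H3K27me3-only, against 11.1%, and 35 (8.54%) lay at promoters. All 281 had 50 reads or more on average, but only 200 of the 410 did. Their median CpG content was 3.56 and 1.07 per 100 bp. These shares describe the choice and were not tested. They did not hold with the replicate 1 pair exchanged, which gave 2386 candidates toward K27-K4, of which 17.8% were H3K4me3-only, 48.2% had both totals and 86.7% lay at promoters, and 550 toward K4-K27, of which 92.4% were H3K4me3-only and 68.9% lay at promoters.

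In-line classes name the totals with a called region there, and a mark can be present without one. By in-line class, H3K4me3-only regions (11334) had a median difference of 0.41 in replicate 1 and 0.03 in replicate 2, and H3K27me3-only regions (2436) one of -0.73 and -0.06. Regions with neither total (5313) had -0.29 and -0.06. Regions with both totals (2774) had -0.48 in replicate 1 and 0.27 in replicate 2. In this class 11.5% of regions were higher in K27-K4 in replicate 1 and 83.9% in replicate 2. Here the replicates had opposite directions. H3K4me3-only minus H3K27me3-only regions came to 1.14 in replicate 1 and 0.09 in replicate 2, a mean of 0.62 ± 0.74 (SD, n = 2), which is within the spread of the replicates. The same contrast was -2.62 and -1.60 in the WT clones.

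By position and between the outer CpG quartiles, the medians of the replicates, as labelled, had the same direction. Regions at promoters had a median of 0.13 in replicate 1 and 0.16 in replicate 2, and regions away from promoters -0.24 and -0.14. The contrast was 0.37 and 0.30, a mean of 0.33 ± 0.05 (SD, n = 2). With the replicate 1 pair exchanged it would be -0.37 and 0.30, a mean of -0.03 ± 0.47 (SD, n = 2). In replicate 1 it was reversed within regions with both totals, at -0.50 at promoters and -0.42 away from them, and close to 0 within regions with neither total, at -0.28 and -0.29. In the WT clones it was -1.54 and -1.12. In the quartile of regions with the most CpG (over 3.15 per 100 bp) the medians were 0.40 and 0.14, and in the quartile with the least (up to 1.86) they were -0.39 and -0.15. The contrast of these quartiles was 0.79 and 0.29 (mean 0.54 ± 0.35, SD, n = 2), against -2.86 and -1.99 in the WT clones. Exchanged, it would be -0.79 and 0.29 in E14. Within H3K27me3-only regions the quartiles of most and least CpG had -0.60 and -0.86 in replicate 1 and 0.41 and -0.26 in replicate 2. Within H3K4me3-only regions they had 0.54 and 0.23, then 0.08 and -0.16, and the quartile of most CpG was also the higher in both replicates in the other 2 classes.

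By width the replicates, as labelled, had opposite directions. Regions under 2 kb had a median of 0.07 in replicate 1 and -0.35 in replicate 2, and regions of 10 kb or wider -0.59 and 0.35. The contrast was -0.66 in replicate 1 and 0.70 in replicate 2, with WT clones at 0.71 and 0.34. Exchanging the replicate 1 pair would give 0.66 and 0.70. In replicate 2, the deeper pair, 94.0% of the 1433 widest regions were higher in K27-K4 and 18.8% of the narrowest. Narrow regions were also the shallowest, with a median of 73 and 136 reads in the libraries of replicate 2 against 1735 and 5148 in the widest, and the part of depth was not tested. Chromosome X (637 regions) differed little from the autosomes, by 0.15 in replicate 1 and -0.03 in replicate 2.

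**Figure D3:**
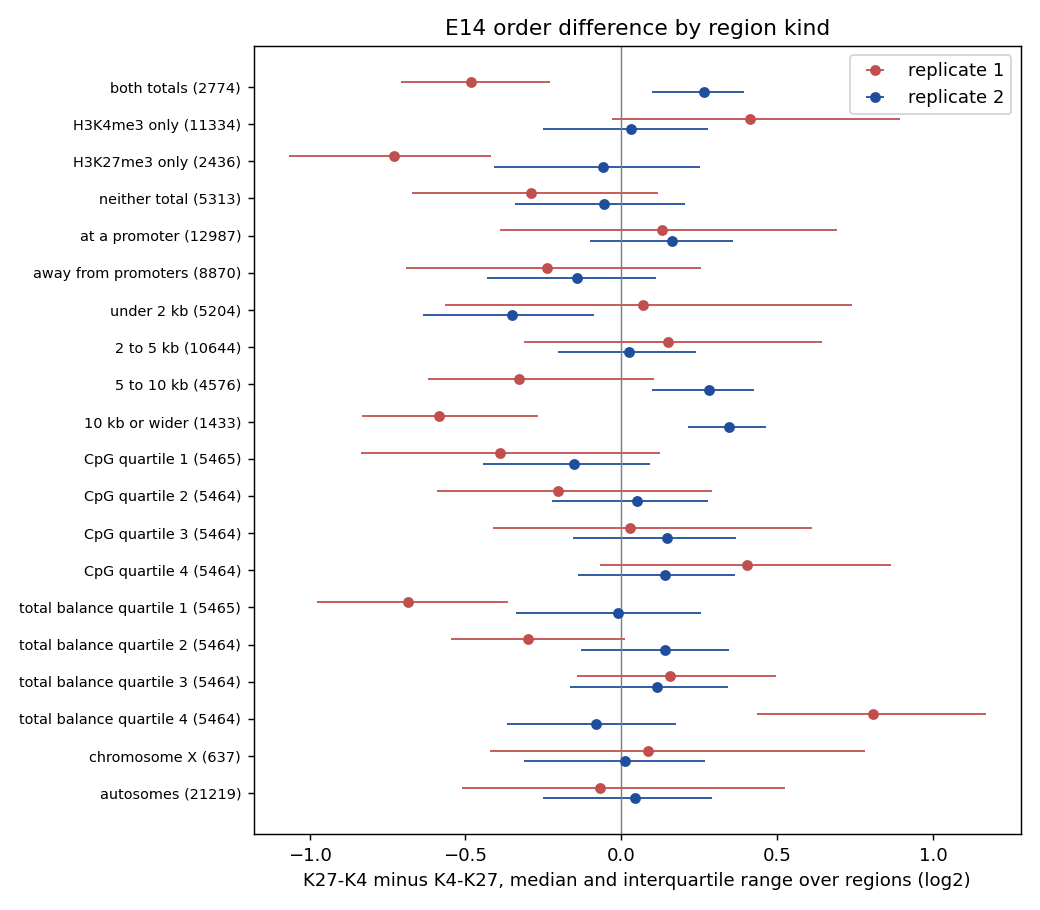
Median order difference (log2, horizontal axis) over the regions of each kind in E14 replicate 1 (red) and replicate 2 (blue), with bars for the interquartile range over regions and the number of regions in parentheses. Promoters lie right and other regions left of 0 in both replicates, while both-totals regions and regions of 5 kb or wider lie on opposite sides.

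The balance of the totals separated the sources. From the lowest to the highest quartile of total H3K4me3 minus total H3K27me3, the median difference in replicate 1 went from -0.68 through -0.30 and 0.16 to 0.81. In replicate 2 it was -0.01, 0.14, 0.11 and -0.08. In WT clone 57 it went the other way, from 1.87 to -1.79, and in WT clone 58 from 1.09 to -1.32. The DKO clones ran from 1.72 to -1.67 and from 1.25 to -1.30.

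**Figure D4:**
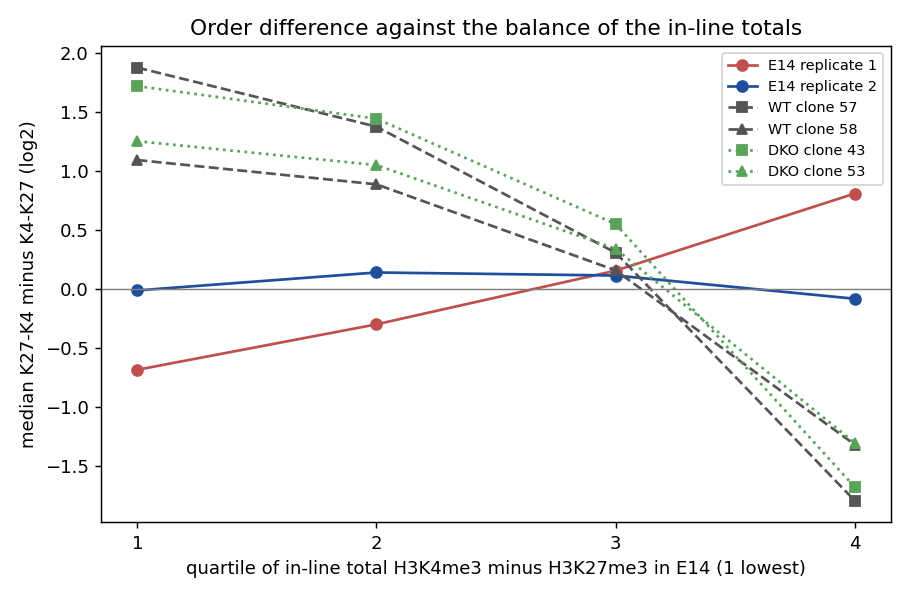
Median order difference (log2, vertical axis) in each quartile of the E14 balance of in-line totals (horizontal axis) for the pair of reChIPs of each E14 replicate and each clone. The line of E14 replicate 1 climbs from -0.68 to 0.81, that of replicate 2 stays between -0.08 and 0.14, and those of the 4 clones descend.

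Tested over all shared regions, the order difference differed between E14 cells and WT clones (limma interaction, replicate or clone as a block). It was shifted toward K27-K4 in E14 at 4296 regions (19.7%) and toward K4-K27 at 5453 (24.9%). These counts rest on the replicate 1 labels as given, and the interaction was not fitted with that pair exchanged. Without E14 replicate 1 these counts were 2183 and 412, and without WT clone 57 they were 2382 and 1073. Such a fit leaves 1 library per order in that source, so its spread is taken from the other libraries and the lone pair is assumed to vary like them, here and in the clone fits below. After quantile normalisation they were 3511 and 2536. Within the WT clones 6958 regions were called higher in K27-K4 and 4546 higher in K4-K27, and without clone 57 it was 1362 and 2225. After quantile normalisation the split was 4769 and 4869. The centred WT differences had a median of 0.76 over all regions, which is 0.36 after quantile normalisation. In the DKO clones 8270 (37.8%) and 4427 were called, without clone 43 it was 979 and 1003, and after quantile normalisation 4607 and 4434. Cell source and sequencing batch cannot be told apart.

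A further 10 loci came from the qPCR of the study. At Gapdh, the housekeeping gene with H3K4me3 alone, centred values were -1.65 and -0.82 for K4-K27 against 0.02 and -0.27 for K27-K4. The orders did not overlap, and K4-K27 was low in both replicates, in replicate 1 below IgG–IgG by a log2 difference of -1.55 (mean order difference 1.11, SE 0.53, unadjusted p = 0.0362 and adjusted p = 1.00 in limma). At Klf4, a pluripotency factor, they were 0.54 and 0.81 for K4-K27 against 0.92 and 1.38 for K27-K4, high in all 4 libraries. At the homeobox gene Tlx1, with both totals, they were 2.02 and 1.11 for K4-K27 against 1.19 and 1.37 for K27-K4, and the orders overlapped.

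All of the others of these 10 but Gm6116 had, as Tlx1 did, a negative difference in replicate 1 and a positive one in replicate 2. Pou4f1, a POU factor of sensory neurons, had -0.87 and 0.46. Dlx3 had -0.38 and 0.28, Lmo1 -0.84 and 0.36, Meis2 -0.65 and 0.23, Csf1 -1.29 and 0.15, and Sox6 -0.43 and 0.25. Their values in the 4 libraries were above the library medians throughout. Gm6116, the only one of these loci classed H3K27me3-only, had 0.94 and -0.76 for K4-K27 against -0.24 and -0.80 for K27-K4, with differences of -1.18 and -0.04. The study lists Meis2 with it as an H3K27me3-only control, while Meis2 had both totals here. Primers of the study cover 2 more loci with a shared promoter region, looked at only after the values were known. Mcmdc2 had 0.71 and 0.05 and Rnf149 had 0.64 and 0.44, both with H3K4me3 alone in the totals and positive in both replicates. The study treats both, and also Dlx3 and Lmo1, as bivalent loci, though all were H3K4me3-only by in-line class.

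The gene lists were read at the shared promoter region of each gene, and 0 members of any list were called. Across all 15305 genes with such a region, the median difference was 0.16 in replicate 1 and 0.17 in replicate 2, and the orders did not overlap at 3060 (20%) higher in K27-K4 and 370 (2.42%) higher in K4-K27. Exchanging the replicate 1 pair gave 4780 (31.2%) and 1986 genes. Of all 15305 genes, 8742 were higher in K27-K4 in replicate 1, 10422 in replicate 2 and 4818 in both, the background for the list counts below. Cytosolic ribosomal protein genes, which are active in all cells, had the highest medians, 1.35 in replicate 1 and 0.41 in replicate 2. Of the 61 with a region, 58 were higher in K27-K4 in replicate 1, 51 in replicate 2 and 48 in both, and at 43 the orders did not overlap. Rps27 had -2.86 and -0.59 for K4-K27 against 0.02 and -0.34 for K27-K4. Rps27l and Rpl30 were at the other end, with differences of 0.06 and -0.54, and 0.00 and -0.23.

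Genes for H3K4 methyltransferase and demethylase components (17) had medians of 1.08 and 0.20. All 17 were higher in K27-K4 in replicate 1 and 13 in both replicates, so the count of 13 rests on the replicate 1 labels. The H3K4 demethylase gene Kdm5b had -0.58 and -0.27 for K4-K27 against 0.58 and 0.69 for K27-K4, and the orders did not overlap. Pluripotency factors (27) had medians of 0.65 and 0.24. Sox2, a core factor of embryonic stem cells, had -1.20 and -0.38 for K4-K27 against 0.31 and 0.30 for K27-K4, and Esrrb, with both totals, had differences of -0.62 and 0.33. Polycomb components (31) had 0.11 and 0.24.

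In other lists of genes used by most cells, the medians were above that of all promoter genes in replicate 1 and below it in replicate 2. Splicing factors (56) had medians of 1.01 and 0.06, with the splicing repressor gene Ptbp1 at 1.93 and 0.83. Proteasome subunits (44) had 0.75 and 0.05, respiratory chain and ATP synthase subunits (67) 0.77 and -0.05, DNA replication genes (48) 0.73 and -0.05, and aminoacyl-tRNA synthetases (32) 0.97 and -0.18. Of the synthetases, 31 were higher in K27-K4 in replicate 1 and 9 in replicate 2.

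Developmental lists had opposite signs in the replicates. The 39 Hox genes lay in 8 shared regions and had medians of -0.98 in replicate 1 and 0.18 in replicate 2, with 0 and 38 genes higher in K27-K4. Hoxd8 and Hoxd9 share a region at 2.24 and 1.20 for K4-K27 against 1.22 and 1.49 for K27-K4, high in every library. Lineage transcription factors (171) had -0.74 and 0.29, of which 4 were higher in K27-K4 in replicate 1 and 168 in replicate 2. Hand2, a factor of heart and limb, had -1.05 and 0.00. Ion channels and neurotransmitter receptors (136) had -0.58 and 0.38, signalling ligands and receptors (107) -0.43 and 0.35, and axon guidance genes (65) -0.39 and 0.38. For signalling and axon guidance the mean of the replicate medians was near 0 and changed sign under quantile normalisation. Germline genes (42) had -0.40 and 0.19. Imprinted genes (34) had -0.37 and 0.23, and here too the mean changed sign under quantile normalisation, with H19 lowest.

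In both WT clones the median of each list had the opposite sign to that of replicate 1. Of the 39 Hox genes all 39 were called higher in K27-K4, in 8 regions, and of the 171 lineage factors 151 were. Of the 61 ribosomal protein genes 45 were called higher in K4-K27, and of the 67 respiratory genes 60. Over all 15305 genes 3438 were called higher in K27-K4 and 5412 higher in K4-K27.

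**Figure D5:**
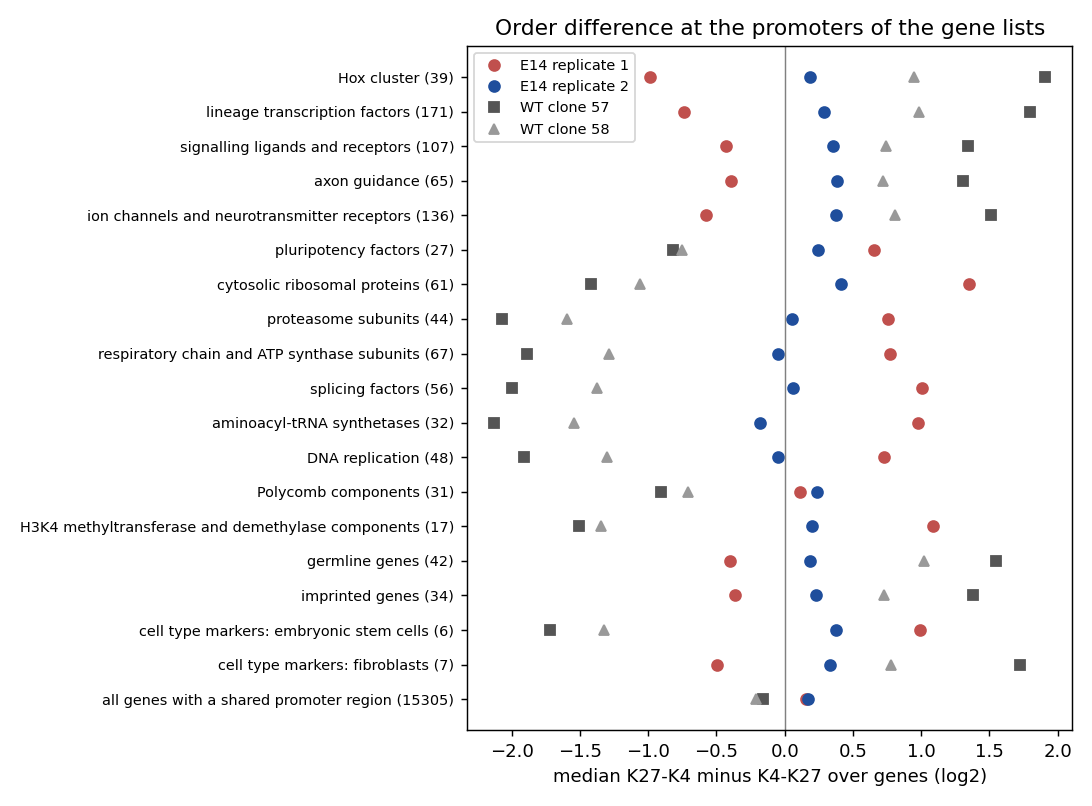
Median order difference (log2, horizontal axis) over the genes of each list with a shared promoter region (number in parentheses) in E14 replicates 1 and 2 and WT clones 57 and 58. Ribosomal protein genes lie at 1.35 and 0.41 in E14 and left of 0 in the WT clones, and Hox genes at -0.98 and 0.18 in E14 and right of 0 in the WT clones.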

How the data were processed

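ChIP-reChIP libraries of E14 cells and clones were used. The authors trimmed reads (Trim Galore 0.6.6 per the submitters' processing notes), aligned them to mm10 (BWA 0.7.13), marked duplicates (Picard 2.6.0) and quantified regions in SeqMonk. The values that the authors deposited are log2 RPM (reads scaled to library size) per kb of region, with duplicates kept and IgG–IgG not subtracted. The study's methods name EPIC2 for the peaks of each replicate, with IgG–IgG as control, and the submitters' processing notes also list MACS2; which of these, if either, gave the regions of these tables is not given in the sources used here. Tables held 32 columns of no sample, which were not used. Values stepped in whole reads (within 0.05 of a read, with 0 reads entered as 0.9), so reads per region were recovered; they serve for depth only, because the values are log2.

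Shared regions had the same start and end in both tables, and values there were identical. Each library was centred on its median. K27-K4 was compared with K4-K27 with limma 3.58.1 in R 4.3.3 (lmFit, eBayes with trend and robust), with Benjamini-Hochberg adjustment over all 21857 regions, called at an adjusted p under 0.05 and a log2 difference above 1. The replicate was a block, since same-numbered libraries share a sequencing batch per the labels (a clone's libraries share the clone), and the protocol splits the chromatin of a pellet over the antibodies; their deviations from the group means correlated at 0.193 in E14, 0.0076 in WT and 0.0493 in DKO clones. A promoter was the span within 1.5 kb of any of 31603 start sites in RefSeq (GRCm38). In-line classes are overlaps with the total H3K4me3 and total H3K27me3 region sets. The study found its in-line totals noisy, could not call many peaks from them and classified its own peaks with independent totals. A class therefore names called regions and not the absence of a mark. Lmo1 was H3K4me3-only, yet its total H3K27me3 lay above IgG–IgG by 0.87 and 0.92 and its total H3K4me3 by 0.44 and 0.34. Over that class the median total H3K4me3 minus total H3K27me3 was 2.32. Balance and CpG quartiles are of equal size. A gene with several shared promoter regions took that with the highest mean. Tables were made in Python 3.11.15 with pandas 2.3.3, scipy 1.17.1 and numpy 2.4.6, and plots with matplotlib 3.10.9.

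Named regions were, per direction, the 10 promoter and 3 other regions with the largest smaller difference of the replicates, filled from unadjusted p under 0.05 as none was called, with 50 reads on average, then the qPCR loci and the ends of each gene list. Not every locus that this rule names is reported here. Members and lists were chosen with earlier results of these data known, and the pairs of kinds contrasted were chosen after their medians were seen. Biological replicates are as the labels number them.

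The fit was tested on simulated data, with 200 of 21857 regions shifted. The outcome depended on the noise assumed. With noise drawn from the residual SDs of single regions, 0% of regions shifted by 2 or 3 log2 units were recovered in E14 and in the WT clones. This was the noise model tried first. With each region's moderated variance, adopted after that result was seen, 53.5% and 86.5% were recovered in E14 and 59.5% and 74.0% in the WT clones, with 38 and 35, and 33 and 44, unchanged regions called beside 107 and 173, and 119 and 148, shifted ones, which is more than the nominal 5% of false calls. The counts of called regions should be read with this in mind. Alternatives covered scaling, variance model, thresholds, regions tested, pairing, promoter and overlap rules, libraries left out and an exchange of the replicate 1 pair. Peak lists other than the regions of these tables, and independent totals, were not used here.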

Additional observations from a re-analysis of the deposited data

Results flagged for a closer look

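The order difference differed between E14 cells and WT clones by the limma interaction at 4296 regions shifted toward K27-K4 in E14 and at 5453 shifted toward K4-K27. These counts too rest on the replicate 1 labels as given, and the interaction was not fitted with that pair exchanged. At 3 kinds both E14 replicates and both WT clones had opposite signs, a difference that was not tested and that rests on the replicate 1 labels as given. E14 minus WT clones, as means of the pairs, came to 2.73 for H3K4me3-only minus H3K27me3-only regions, to 1.66 for regions at promoters minus regions away from them, and to 2.97 for the highest minus the lowest quartile of CpG content. For the in-line classes the E14 value of replicate 2 was 0.09. Source and sequencing batch cannot be told apart.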

How the results depend on the processing

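The count of 0 called regions in E14 stayed at 0 without the replicate block, under quantile normalisation, a common median absolute deviation, both filters on low values, no threshold on the log2 difference and 1 fit with the clones. With the replicate 1 pair exchanged, added after seeing the data, 6 regions were called higher in K27-K4 and 12 in K4-K27. With values as deposited, 1523 regions were called higher in K27-K4 and 0 in K4-K27. With eBayes without trend and robust the counts were 3 and 5, all resting mainly on replicate 1. Leaving out a replicate gave 0 to 86 regions higher in K27-K4 and 0 to 7 higher in K4-K27, the larger counts without replicate 2. These fits leave 1 library per order, so the spread comes from the clones and the lone pair is assumed to vary like them. Of those 86, 35 had the same sign in replicate 2, and they had a median of 6 reads in the K4-K27 library of replicate 1, so that these rest on few reads. Of the 7, 5 had the same sign in replicate 2, with a median of 377 reads in that library.

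Among region kinds, leaving out a replicate moved the contrasts from 0.09 to 1.14 for the in-line classes, from -0.19 to 0.32 for both against neither total, from 0.30 to 0.37 for promoters, from 0.29 to 0.79 for CpG quartiles, from -0.0702 to 1.49 for balance quartiles, from -0.66 to 0.70 for width and from -0.0311 to 0.152 for chromosome X. With the replicate 1 pair exchanged the contrasts reversed to -0.53 for the in-line classes, -0.0323 for promoters, -0.25 for CpG, -0.78 for balance and -0.0916 for chromosome X, while both against neither total was 0.26 and width 0.68. The promoter contrast was 0.24 under quantile normalisation and 0.28 with a common median absolute deviation, and the chromosome X contrast reversed to -0.0107 and -0.0254. The mean of list medians reversed to 0.0145 for signalling and 0.0244 for axon guidance under quantile normalisation, to 0.00217 for axon guidance with narrow promoters, and to 0.00141 for imprinted genes under quantile normalisation. The cause was not tested.

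Libraries left out of the clone fits and the interaction were chosen after seeing the data. The WT counts then ran from 1362 to 7445 higher in K27-K4 and from 2225 to 4342 higher in K4-K27, the DKO counts from 979 to 6104 and from 1003 to 3301, and the interaction counts from 2183 to 4824 and from 412 to 5832. Under quantile normalisation the DKO count higher in K27-K4 was 4607 and the interaction count toward K4-K27 was 2536. Without the replicate block the WT counts were 7397 and 4603, the DKO counts 8292 and 4408 and the interaction counts 4030 and 5042.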
